A study of Mus musculus with 18 samples.

Results

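The genes described here are 37 cell cycle genes chosen by symbol from their known roles, 19 that act in DNA replication and 18 that act in mitosis, with earlier results of these data known. Of these, 36 were measured, all 19 replication genes and 17 of the 18 mitosis genes, through 80 of the 45101 probe sets of the array. They stand among 18194 genes with a probe set and 11388 that were bright enough to test, and all 36 were tested. Ccnb1, which encodes cyclin B1, had no probe set in the annotation used and has no value here.

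RNA came from mouse embryonic stem (ES) cells, each sample on its own single-colour Affymetrix array, 18 arrays in all. Wild-type cells (Wt) were AB1 ES cells, and the mutant cells (KO) were AB1 cells with both copies of Cyp26a1 disrupted, written CYP26A1-/-. Cyp26a1 encodes the enzyme that degrades retinoic acid (RA), a vitamin A derivative that drives ES cells to differentiate. For each genotype there were 3 control arrays at 8 h, 3 arrays of cells given 100 nM RA for 8 h and 2 arrays of cells given 100 nM RA for 72 h. All of these cells, controls included, received leukemia inhibitory factor (LIF), the cytokine that holds mouse ES cells undifferentiated, and 1 further control array per genotype held cells without LIF. No 72 h control was available, so at 72 h the action of RA and that of time in culture cannot be told apart. The labels do not say whether the KO cells are a single clone, nor whether the repeats were separate cultures, so the spread that p-values rest on may be technical only.

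DNA replication starts when Cdc6 and Cdt1 load the Mcm2 to Mcm7 helicase at origins, geminin (Gmnn) blocks a repeat of that loading, and cyclin E with its kinase fires the origins. Ribonucleotide reductase (Rrm1 and Rrm2) supplies the nucleotides, and the clamp Pcna holds the polymerases on the template. Later in the cycle cyclin A and cyclin B with Cdk1, the Polo and Aurora kinases, the kinetochore proteins and the motor Kif11 build the spindle and part the chromosomes. Genes of both phases are transcribed in waves, through E2F sites in many S phase promoters and through CHR and CCAAT elements in many mitotic promoters, and mouse ES cells are known for a short G1 phase and for high levels of many of these messages.

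E2F words were found more often in the promoters of the replication genes and CHR elements more often in those of the mitosis genes, and 3 promoters are shown as cases with E2F words and no CHR element (Mcm6), with both (Cdk1) and with neither (Ccne1). The sequences are from RefSeq, assembly GRCm38.p6, and each window is the 250 bases before a start listed for the gene. Whether a listed start is the one used in these cells was not checked, so a promoter without a match may have been searched at another place. Mcm7 had 2 windows, and a gene was counted where any of its windows held a match. A promoter was found for 32 of the 37 genes, 16 of each group (not for Mcm4, Ccne2, Gmnn, Ccna2 and Aurkb). Both strands were searched for 4 E2F words (TTTCCCGC, TTTGGCGC, TTTCGCGC and TTTGCCGC), the CHR element (TTTGAA) and the CCAAT box (CCAAT). In capitals are the matches, in the orientation in which they lie, so a CCAAT box on the other strand reads ATTGG and the longest run of capitals in Mcm6 is a pair of overlapping E2F matches on opposite strands.
Mcm6, chr1:128359706-128359955, minus strand: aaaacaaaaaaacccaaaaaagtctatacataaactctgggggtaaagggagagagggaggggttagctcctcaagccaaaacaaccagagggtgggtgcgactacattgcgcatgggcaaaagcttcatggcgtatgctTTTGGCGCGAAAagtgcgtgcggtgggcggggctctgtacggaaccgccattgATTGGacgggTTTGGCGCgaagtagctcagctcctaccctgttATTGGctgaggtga
Cdk1, chr10:69352913-69353162, minus strand: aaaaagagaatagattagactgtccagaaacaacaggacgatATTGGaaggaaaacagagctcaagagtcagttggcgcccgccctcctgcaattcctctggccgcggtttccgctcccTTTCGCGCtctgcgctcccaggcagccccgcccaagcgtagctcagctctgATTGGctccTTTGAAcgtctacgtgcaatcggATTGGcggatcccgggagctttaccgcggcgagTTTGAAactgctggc
Ccne1, chr7:38107491-38107740, minus strand: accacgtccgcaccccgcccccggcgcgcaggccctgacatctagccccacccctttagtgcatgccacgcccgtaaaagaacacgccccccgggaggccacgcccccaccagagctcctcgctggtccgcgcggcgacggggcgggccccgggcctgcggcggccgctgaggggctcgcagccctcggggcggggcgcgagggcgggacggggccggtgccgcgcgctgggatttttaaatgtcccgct
Mcm6, a helicase subunit, holds E2F words and CCAAT boxes. Cdk1, the mitotic kinase, holds an E2F word, CCAAT boxes and CHR elements. Ccne1, which encodes cyclin E1, holds none of the words searched for in this window. An E2F word was present in 6 of 16 replication promoters (37.5%; Mcm5, Mcm6, Mcm7, Cdc6, Rfc3 and Pola1) and in 1 of 16 mitosis promoters (6.25%), against 2.157% of the 27025 genes with a promoter in the table. The CHR element lay in 1 of 16 replication promoters (Mcm2) and in 6 of 16 mitosis promoters (37.5%), against 18.26% of all promoters. A CCAAT box lay in 68.75% of the replication promoters and 87.5% of the mitosis promoters, against 37.49% of all. These are matches of letters only, and they were not set against the changes in expression.

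The deposited signals had a trimmed mean of 500 units on every array, and the median probe set read between 54.4 and 75.6 units. On each array 39.9% to 45.3% of probe sets reached 100 units. As a check of the LIF labels, Socs3, a direct target of LIF signalling, read 367 units on Wt control replicate 1 and 215 units on KO control replicate 1, both labelled with LIF. It read 3800 and 4551 units on the Wt and KO arrays labelled without LIF, and between 2628 and 6001 units on the other 14 arrays. Socs3 thus goes against the LIF labels of these 4 arrays. The counts called at 72 h against control and between genotypes in controls are therefore given below also under 2 alternatives. These are the labels exchanged and the pair of replicate 1 controls left out. Medians, signs, overlaps and intervals that rest on the controls are given with the labels as deposited only. Cyp26a1 read at most 84.2 units on any control array and between 2873 and 3402 units at 72 h in both genotypes. After 8 h of RA it read 637, 1695 and 691 units in Wt and 193, 216 and 193 units in KO cells, without overlap. The place of its probes relative to the deletion is not known here, so these levels check neither genotype. Genes of chromosome 19 were higher in KO than in Wt cells, with a median log2 difference of 0.47 in controls over 414 genes, and genes of chromosome 8 were lower, with a median of -0.25 over 638 genes. Kif11 lies on chromosome 19, and Mcm5 and Cdt1 lie on chromosome 8.

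After 72 h of RA the cell cycle genes as a whole stayed close to their control levels, and a few replication genes were lower. In Wt cells 5 of 36 genes fell, the replication genes Ccne1, Cdt1 and Mcm3 and the mitosis genes Bub1b and Ccna2, and none rose. Of all genes tested 24.7% were called, 8.64% lower and 16.1% higher, so the share of the 36 that was called was below the 24.7% and the share that fell was above the 8.64%, a difference that was not tested. In KO cells the replication genes Ccne1, Cdt1 and Rrm2 fell and the mitosis gene Ttk rose, where 23.0% of all genes were called, 8.26% lower and 14.8% higher, so 3 of 36 lower is a share near that background. Calls are at an adjusted p under 0.05 from limma, Benjamini-Hochberg adjusted over all 11388 genes, and differences below are on the log2 scale with their standard error. Both 72 h comparisons share no array with each other, but each shares its 72 h arrays with the comparison against 8 h of RA.

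**Figure D1:**
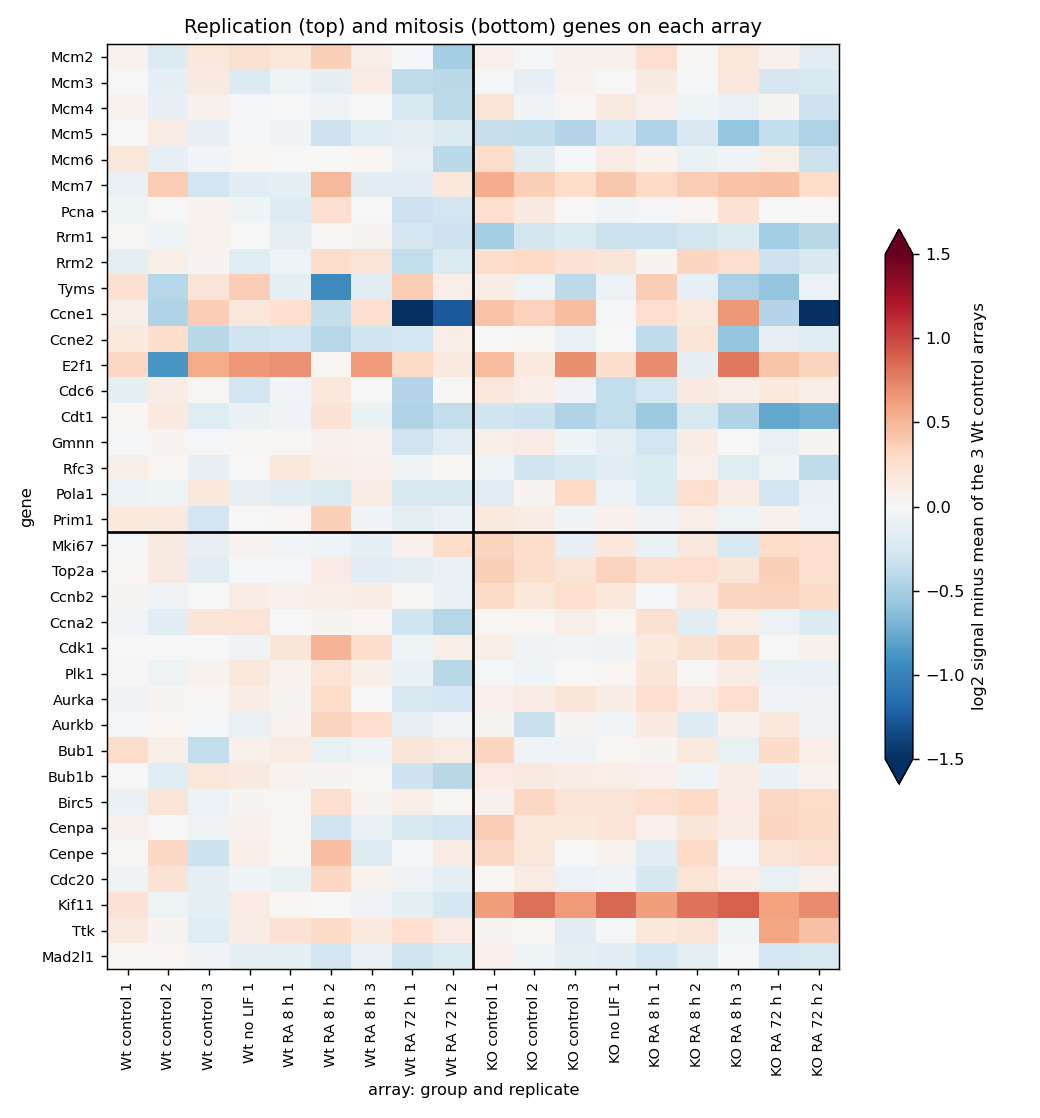
Signal of the 36 measured genes on all 18 arrays, as log2 minus the mean of the 3 Wt control arrays. Columns are arrays in their groups and rows are genes, replication genes above mitosis genes. Ccne1 is the gene with the deepest loss in the 72 h columns, and Kif11 is higher in every KO column.

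The median log2 difference at 72 h was -0.24 over the replication genes in Wt cells and -0.13 in KO cells, where the median over all genes tested was 0.06 in each. The mitosis genes had medians of -0.09 in Wt and 0.04 in KO cells. The middle range of all genes, from lower to upper quartile, ran from -0.23 to 0.44 in Wt and from -0.22 to 0.41 in KO cells. Of the 19 replication genes, 17 lay below 0 in Wt cells and 18 in KO cells, whereas 44.1% and 44.8% of all genes did. Both genotypes were below 0 for 16 of 19 replication genes and for 7 of 17 mitosis genes, against 34.7% of all genes. These are descriptions of the lists and carry no test. In bulk RNA, fewer cycling cells and less message per cell cannot be told apart.

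Most of the 36 genes were bounded within a narrow range. The 95% confidence interval of the 72 h difference lay within 1.5-fold in either direction for 28 of 36 genes in each genotype, against 27.1% of all genes in Wt and 27.9% in KO cells. It lay within 2-fold for 35 of 36, all but Ccne1. These genes also varied less between repeats than all genes did. Their median coefficient of variation over the Wt controls was 10.1%, where the median over all genes was 16.2%. Both comparisons with all genes were made without regard to signal, so genes of like brightness were not compared. The part of brightness in the narrow intervals and the small spread was not tested.

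**Figure D2:**
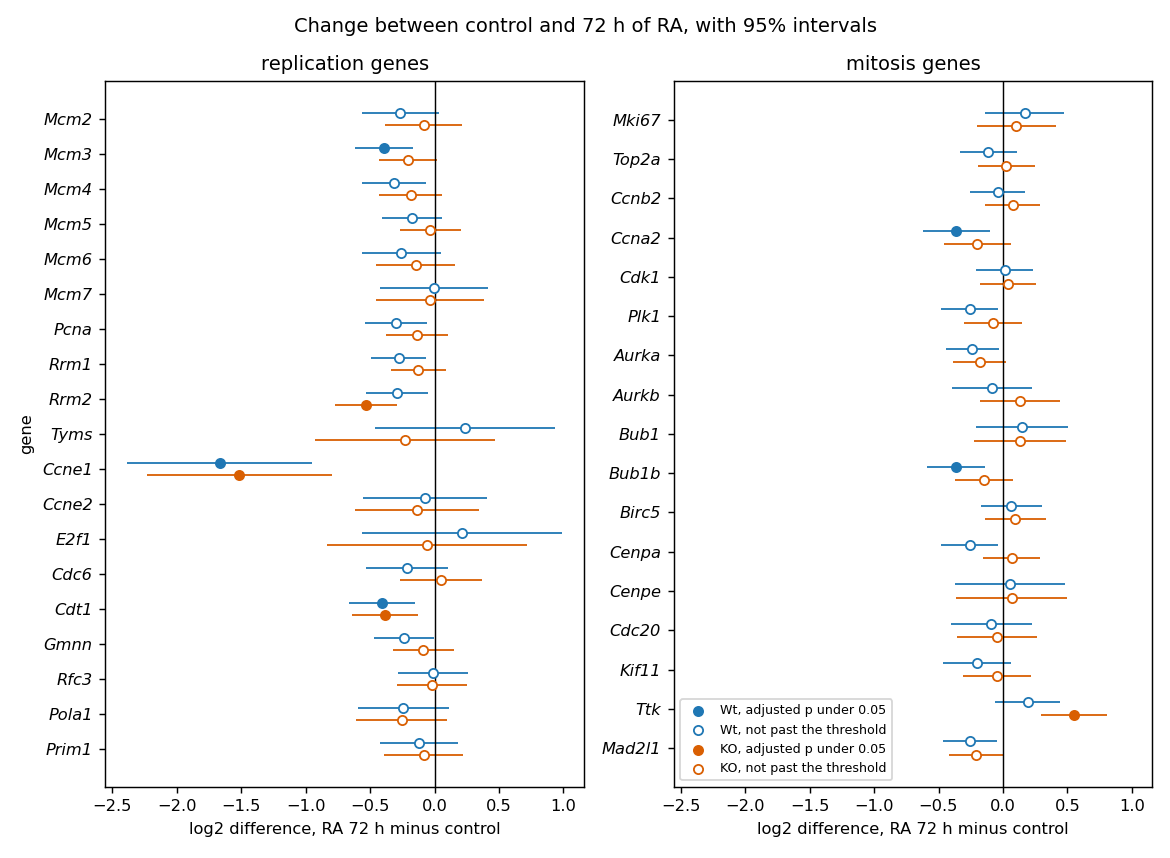
Log2 difference between 72 h of RA and control for each of the 36 genes, with its 95% confidence interval, in Wt (blue) and KO cells (orange). Filled points have an adjusted p under 0.05. Ccne1 lies far to the left in both genotypes, and Ttk is the only filled point to the right of 0.

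Among the replication genes, Ccne1, whose product cyclin E1 drives entry into S phase, had by far the largest change. It read 6179.6, 4221 and 7454 units on the Wt control arrays, 6880.0, 4515 and 6817 units after 8 h of RA, and 1374 and 2420.0 units after 72 h. In KO cells it read 7806, 7349 and 7968 units in control, 6914, 6424 and 9061 units at 8 h, and 4267 and 1698 units at 72 h. All 4 arrays of 72 h lay below every other Wt array or every other KO array, with a wide gap between the 2 arrays of each genotype. The difference from control was -1.67 ± 0.34 in Wt cells (adjusted p = 0.00216, 3.18-fold lower) and -1.52 ± 0.34 in KO cells (adjusted p = 0.0044, 2.86-fold lower). A second probe set of Ccne1 gave -1.11 and -1.09. The call rested on the deeper array of each pair. Without Wt RA 72 h replicate 1 the Wt difference was -1.26 (adjusted p = 0.0535), and without KO RA 72 h replicate 2 the KO difference was -0.85 (adjusted p = 0.119). Without the other array of the pair they were -2.08 and -2.18. The responses of the genotypes differed by 0.15 ± 0.48, with a 95% interval from -0.86 to 1.17. Ccne2, which encodes cyclin E2, read between 470 and 849 units and differed by -0.08 ± 0.23 in Wt and -0.13 ± 0.23 in KO cells (adjusted p = 0.843 and 0.729).

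Cdt1, the loader of the helicase, was lower at 72 h in both genotypes. Its signal was 14118, 15319 and 12219 units in Wt controls, 13352, 16111 and 12905 units at 8 h, and 10099.9 and 10746 units at 72 h. The KO arrays gave 11207, 11063 and 10072 units in control, 9503, 11746 and 10096 units at 8 h, and 8144 and 8361 units at 72 h. The 72 h arrays were again the lowest of their genotype, and the KO arrays lay below the Wt arrays in each condition. The difference at 72 h was -0.41 ± 0.12 in Wt (adjusted p = 0.0223) and -0.38 ± 0.12 in KO cells (adjusted p = 0.0324), and the second probe set gave -0.51 and -0.42. The Wt call was lost without control replicate 1 (adjusted p = 0.0567), control replicate 2 (0.0783), 72 h replicate 1 (0.15) or 72 h replicate 2 (0.0764). The KO call was lost without control replicate 1 (adjusted p = 0.085), control replicate 2 (0.0865), 72 h replicate 1 (0.156) or 72 h replicate 2 (0.12). Cdc6, its partner in loading, read between 2119 and 3256 units and gave -0.21 ± 0.15 in Wt and 0.05 ± 0.15 in KO cells (adjusted p = 0.334 and 0.852). Gmnn, whose product inhibits Cdt1, gave -0.24 ± 0.11 in Wt and -0.09 ± 0.11 in KO cells (adjusted p = 0.133 and 0.627).

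Of the 6 helicase subunits, Mcm3 was called, in Wt cells. It read 8784, 7988 and 9580.3 units in Wt controls, 8286, 7911 and 9558 units at 8 h, and 6708 and 6636 units at 72 h. In KO cells the signal was 8645, 8042 and 9064 units in control, 9588, 8606 and 9868 units at 8 h, and 7355 and 7500.1 units at 72 h. The 72 h arrays did not overlap the others in either genotype. Mcm3 fell by 0.39 ± 0.11 in Wt cells (adjusted p = 0.013), lost without 72 h replicate 1 (adjusted p = 0.0737) or 72 h replicate 2 (0.0866), and its KO difference of -0.21 ± 0.11 did not pass (adjusted p = 0.18). Against 8 h of RA it was called in both, at -0.36 (adjusted p = 0.0234) and -0.33 (adjusted p = 0.0388). Other bright probe sets of Mcm3 gave -0.49, -0.45 and -0.53 at 72 h against control in Wt cells. In KO cells they gave -0.25, -0.44 and -0.41, so the KO difference depended on the probe set. A dim probe set gave -0.02 in Wt and 0.08 in KO cells.

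The other helicase subunits had small differences at 72 h against control that did not pass the test under the main settings. With the replicate number as a block Mcm4 (-0.32, adjusted p = 0.0088) and Mcm6 (-0.27, adjusted p = 0.0314) were called lower in Wt cells. Mcm4 was also called lower in Wt cells without Wt control replicate 2, and Mcm2 under settings given below. Mcm2 read 9020.5, 7569 and 9698 units in Wt controls, 9754, 11122 and 9348 units at 8 h, and 8528 and 6174 units at 72 h. In KO cells Mcm2 read 9152, 8592 and 9131 units in control, 10381, 8818 and 9789 units at 8 h, and 9138 and 7795 units at 72 h. The groups overlapped in both genotypes, and the 72 h difference was -0.26 ± 0.14 (adjusted p = 0.191) and -0.09 ± 0.14 (adjusted p = 0.72). The Wt difference of Mcm2 was -0.50 without 72 h replicate 1 (adjusted p = 0.0479), -0.031 without 72 h replicate 2 (adjusted p = 0.926) and -0.32 as the mean over probe sets (adjusted p = 0.00847). Mcm4, Mcm5 and Mcm6 gave between -0.32 and -0.18 in Wt cells and between -0.19 and -0.03 in KO cells. Mcm7 gave -0.00 ± 0.20 and -0.04 ± 0.20.

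Rrm2, the small subunit of ribonucleotide reductase and the one whose level follows the cycle, was called lower in KO cells. Its signal was 17693, 18112 and 17049.6 units in KO controls, 15075, 18377 and 17452 units at 8 h, and 11853 and 12505 units at 72 h. In Wt cells it was 13421, 15669 and 15092 units in control, 13884, 17619 and 16850.3 units at 8 h, and 11405 and 12634 units at 72 h. All 72 h arrays lay below the rest of their genotype, and the KO controls lay above the Wt controls. The difference was -0.53 ± 0.11 in KO cells (adjusted p = 0.00334), called whichever single array was left out, and -0.29 ± 0.11 in Wt cells (adjusted p = 0.074). The responses differed by -0.24 ± 0.16, which did not pass (adjusted p = 1, unadjusted p = 0.155). Other probe sets of Rrm2 gave -0.43 and -0.35 in Wt and -0.48 and -0.61 in KO cells. With the mean over probe sets Rrm2 was called lower in both genotypes. Rrm1, the large subunit, gave -0.28 ± 0.10 in Wt and -0.13 ± 0.10 in KO cells (adjusted p = 0.0522 and 0.407). A second probe set of Rrm1 gave -0.27 and -0.22.

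At the fork, Pcna, the sliding clamp, was not called. It read 25010.3, 26274 and 27088 units in Wt controls, 22862, 30817 and 26099.5 units at 8 h, and 21115 and 21392 units at 72 h. In KO cells it read 31072, 28736 and 26289 units in control, 25563, 26688 and 30305 units at 8 h, and 26216 and 25977 units at 72 h. The 72 h arrays lay below the controls of their genotype, just so in KO cells, and the difference did not pass in either, at -0.30 ± 0.11 (adjusted p = 0.0687) and -0.13 ± 0.11 (adjusted p = 0.445). Pola1 and Prim1, of the polymerase alpha and primase complex, gave -0.24 and -0.12 in Wt cells and -0.25 and -0.09 in KO cells, none called. A dimmer probe set of Prim1 gave -0.69 and -0.68, so the probe sets of Prim1 disagree in size. Rfc3, of the clamp loader, gave -0.01 and -0.02. E2f1, the transcription factor of S phase genes, had the widest spread of the Wt controls, and Tyms, which makes thymidylate, read only 61.4 to 155 units, and neither had an interval within 1.5-fold in either genotype.

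**Figure D3:**
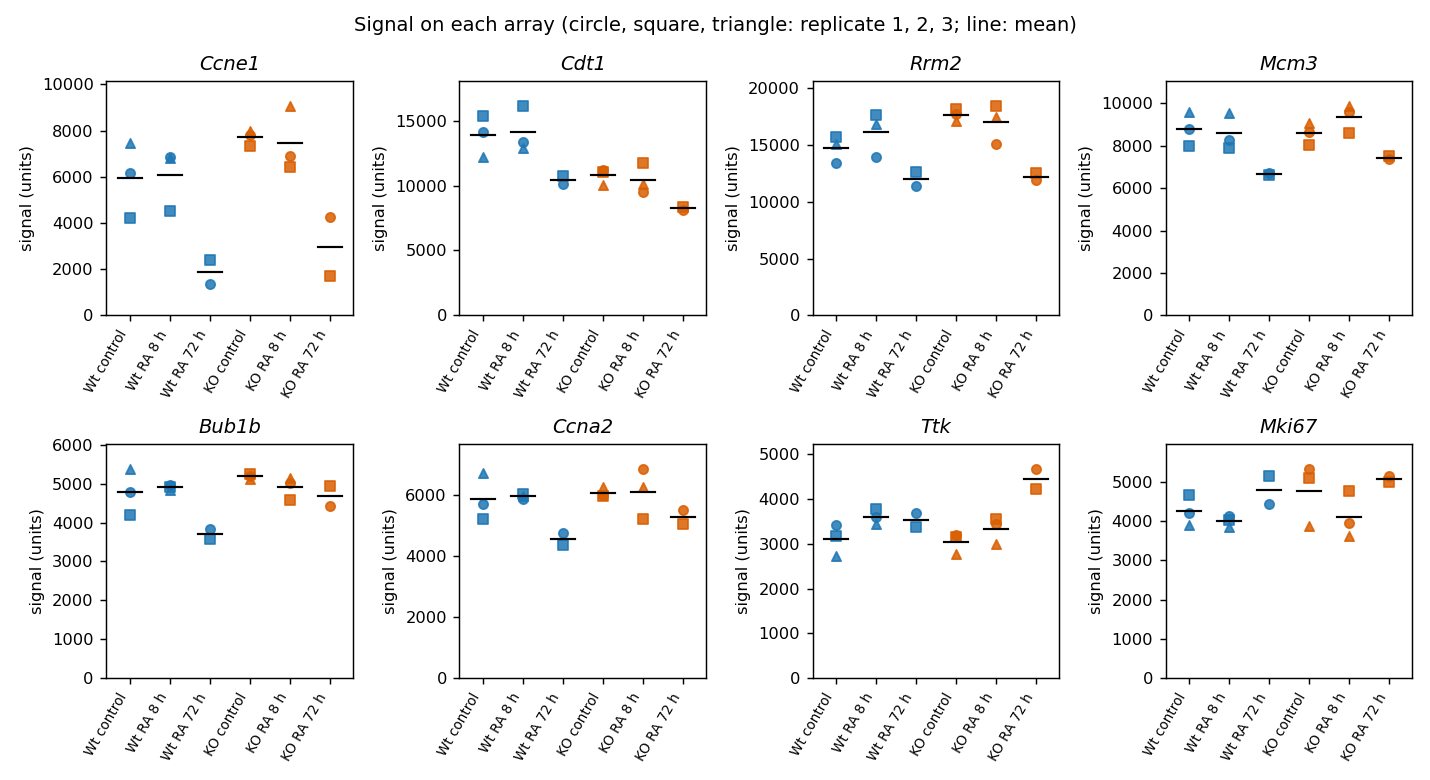
Signal in units (trimmed mean of 500 per array) of Ccne1, Cdt1, Rrm2, Mcm3, Bub1b, Ccna2, Ttk and Mki67 on each array, by group. Points are arrays and bars are group means. Ccne1 drops to 1374 to 4267 units at 72 h in both genotypes, while Mki67 overlaps its controls.

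Among the cyclins and kinases of mitosis, Ccna2 was called at 72 h, in Wt cells. Ccna2, which encodes cyclin A2, read 5694, 5215 and 6696 units in Wt controls, 5865, 6004 and 5950.1 units at 8 h, and 4754 and 4346 units at 72 h. The KO signals were 5969, 5961 and 6240.0 units in control, 6838, 5188 and 6258 units at 8 h, and 5509.8 and 5043 units at 72 h. The 2 Wt arrays at 72 h were the lowest of the 18 arrays, and the KO arrays at 72 h lay below their controls but not below all KO arrays at 8 h. Ccna2 fell by 0.36 ± 0.12 in Wt cells (adjusted p = 0.0411), while the KO difference was -0.20 ± 0.12 (adjusted p = 0.268). The Wt call was lost without control replicate 1 (adjusted p = 0.0667), control replicate 3 (0.139), 72 h replicate 1 (0.0928) or 72 h replicate 2 (0.25). A second probe set gave -0.12, and the mean over probe sets gave -0.24 with the call lost (adjusted p = 0.125).

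Cdk1, the kinase that cyclins A and B activate, was near its control level at 72 h. It read 5753, 5786 and 5809 units in Wt controls, 6565, 8223 and 6947 units at 8 h, and 5540.1 and 6143 units at 72 h. KO cells gave 6166, 5568 and 5619 units in control, 6397, 6755 and 7155 units at 8 h, and 5829.7 and 6035 units at 72 h. The 8 h arrays were the highest of each genotype with no overlap, and the 72 h arrays overlapped the controls. At 72 h the difference was 0.01 ± 0.10 in Wt and 0.04 ± 0.10 in KO cells, with 95% intervals from -0.21 to 0.23 and from -0.18 to 0.26. Plk1, the Polo kinase, gave -0.26 ± 0.10 (adjusted p = 0.0862) and -0.08 ± 0.10 (0.657). Aurka, the Aurora kinase of the spindle poles, gave -0.24 ± 0.10 (adjusted p = 0.0829) and -0.18 ± 0.10 (0.197), and Aurkb and Ccnb2 lay between -0.09 and 0.13.

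Of the spindle checkpoint genes, Bub1b fell in Wt cells and Ttk rose in KO cells. Bub1b, which encodes the checkpoint protein BubR1, read 4795, 4199 and 5382 units in Wt controls, 4963, 4924 and 4830.4 units at 8 h, and 3833 and 3576 units at 72 h. In KO cells it read 5188, 5245 and 5132 units in control, 5023, 4568 and 5144 units at 8 h, and 4434 and 4929.5 units at 72 h. The Wt 72 h arrays were the lowest of all 18. Bub1b fell by 0.36 ± 0.11 in Wt cells (adjusted p = 0.0197) and differed by -0.15 ± 0.11 in KO cells (adjusted p = 0.346). The call was lost without Wt control replicate 3 (adjusted p = 0.0718), 72 h replicate 1 (0.0625) or 72 h replicate 2 (0.158). A second probe set gave -0.26, and the mean over probe sets gave -0.31 with the call lost (adjusted p = 0.1). That mean also takes in a probe set of Bub1b too dim for the filter.

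Ttk encodes the checkpoint kinase Mps1. It read 3194, 3139.5 and 2772 units in KO controls, 3449, 3545 and 3003 units at 8 h, and 4671 and 4212 units at 72 h. In Wt cells it read 3417, 3182 and 2726 units in control, 3587, 3783 and 3433 units at 8 h, and 3695 and 3378 units at 72 h. The KO arrays at 72 h were the highest of the 18, and the Wt arrays at 72 h overlapped their controls. Ttk rose by 0.55 ± 0.12 in KO cells (adjusted p = 0.0037, 1.46-fold), lost without 72 h replicate 1 (adjusted p = 0.0555), and a dim second probe set gave 0.79. In Wt cells the difference was 0.19 ± 0.12 (adjusted p = 0.269), and the responses differed by 0.36 ± 0.17, which did not pass (adjusted p = 0.882, unadjusted p = 0.0498). Bub1 gave 0.15 and 0.13 and Mad2l1, another checkpoint protein, -0.25 and -0.21 in Wt and KO cells, none called.

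Mki67, the marker of cycling cells also known as Ki-67, was not called at 72 h in either genotype. It read 4199.9, 4670.2 and 3889 units in Wt controls, 4127, 4016 and 3857 units at 8 h, and 4431 and 5141 units at 72 h. On the KO arrays it read 5329, 5098 and 3880.5 units in control, 3943, 4765 and 3614 units at 8 h, and 5138 and 5005 units at 72 h. The groups overlapped in both genotypes. The difference was 0.17 ± 0.14 in Wt (95% interval from -0.14 to 0.48, adjusted p = 0.429) and 0.10 ± 0.14 in KO cells (from -0.20 to 0.41, adjusted p = 0.67). Top2a, which untangles chromosomes, Birc5, of the passenger complex, Cdc20, the activator of the anaphase complex, and the kinetochore motor Cenpe lay between -0.12 and 0.10, none called.

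How many genes were called at 72 h depended on the model and on the arrays used, and so did the share of all genes called. The shares of all genes in this paragraph count both directions, and the share lower under these settings is not given here. A count of genes that fell can therefore not be read against them as above or below the background. With the replicate number as a block, 10 of 36 genes fell in Wt cells, where 34.6% of all genes were called in either direction. Cenpa (-0.27, adjusted p = 0.0316), Mcm4 (-0.32, 0.0088), Mcm6 (-0.27, 0.0314), Rrm1 (-0.24, 0.0351) and Rrm2 (-0.28, 0.0188) joined the 5. In KO cells the block left the same 4, where 32.9% of all genes were called. With the LIF labels exchanged, 8 were called in Wt cells (27.8% of all genes), adding Aurka, Plk1 and Rrm1. In KO cells the same 4 were called (25.3% of all genes). Without the replicate 1 controls, 2 were called in Wt cells, Ccne1 and Mcm3 (21.2% of all genes). In KO cells 3 were then called (19.3% of all genes), and the limma call of Cdt1 was lost (adjusted p = 0.0994). Leaving out Wt control replicate 1 or replicate 3 left 3 of the 5 (20.7% and 23.1% of all genes called). Without Wt control replicate 2, 5 were called (21.9% of all genes), with Mcm4 in and Cdt1 out. Leaving out either Wt array of 72 h leaves 1 array in that group. Fewer of the 36 and a smaller share of all genes were then called, and none of the 5 calls held both times. In KO cells, fewer of the 36 and of all genes were called without either 72 h array, and Rrm2 was called both times.

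Without regard to the test, the 72 h arrays lay wholly below the controls for 18 of 36 genes in Wt cells and wholly above for 0, against 19.7% below and 30.0% above among all genes. In KO cells 11 lay wholly below and 1, Ttk, wholly above, against 21.3% and 31.0%. The Wt genes below included Mcm3, Mcm4, Mcm5, Pcna, Rrm1, Rrm2, Ccne1, Cdt1, Gmnn and Pola1 of replication, and Ccna2, Plk1, Aurka, Aurkb, Bub1b, Cenpa, Kif11 and Mad2l1 of mitosis. Set against the 8 h arrays, which also received RA, 10 genes fell in Wt cells (Aurka, Bub1b, Ccna2, Ccne1, Cdk1, Cdt1, Mcm2, Mcm3, Plk1 and Rrm2), where 22.3% of all genes were called, 8.18% lower and 14.1% higher. In KO cells Ccne1, Mcm3 and Rrm2 fell and Ttk rose, where 19.2% were called, 6.52% lower and 12.7% higher. The number called by limma in Wt cells was 2 without 72 h replicate 2, 4 without 72 h replicate 1, 3 without 8 h replicate 2 and 6 without 8 h replicate 3. In KO cells that number was 1 without 72 h replicate 1 or replicate 2 and 2 without 8 h replicate 3. With the replicate block the counts were 14 in Wt and 6 in KO cells, 14 and 5 of them lower. Of all genes 31.3% and 27.7% were then called in either direction, and the share lower is not given here. The Wt arrays at 72 h lay wholly below those at 8 h for 21 genes and wholly above for 3, against 20.9% and 30.1% of all genes, and the KO arrays for 8 and 3, against 18.2% and 29.1%.

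No cell cycle gene of the 36 was called after 8 h of RA in either genotype, a call made for 0.904% of genes in Wt cells (0.790% higher, 0.114% lower) and 0.957% in KO cells (0.861% higher, 0.0966% lower). Cdk1 was the 1 gene with an unadjusted p under 0.05 in each, at 0.32 ± 0.09 in Wt (adjusted p = 0.175) and 0.23 ± 0.09 in KO cells (adjusted p = 0.444). Its 8 h arrays, given above, were higher than the controls with no overlap in both genotypes. The 95% interval lay within 1.5-fold for 32 of 36 genes in each genotype, against 52.0% and 51.2% of all genes, again without regard to signal. The 8 h arrays lay wholly above the controls for 4 genes and wholly below for 1 in Wt cells, against 6.30% and 4.17% of all genes, and for 2 and 0 in KO cells, against 6.80% and 6.07%. The median difference was 0.02 for replication and 0.09 for mitosis genes in Wt cells, and -0.05 and -0.00 in KO cells. No gene of the 36 had a response at 8 h that differed between the genotypes, nor did any of the 11388, with 211 of these at an unadjusted p under 0.05.

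Between the genotypes, 1 mitosis gene differed in every condition. Kif11, the kinesin that pushes the spindle poles apart, read 2346, 1913 and 1845 units in Wt and 3121, 3592 and 3154 units in KO controls. After 8 h of RA it read 2071, 2032 and 1957 units in Wt and 3123, 3554 and 3778 units in KO cells, and after 72 h 1840.0 and 1685 units in Wt and 3070.2 and 3304 units in KO cells. Every KO array lay above every Wt array. Kif11 was higher in KO cells by 0.70 ± 0.11 in controls (adjusted p = 0.00263, 1.62-fold), by 0.78 ± 0.11 at 8 h (adjusted p = 0.00115, 1.72-fold) and by 0.86 ± 0.14 at 72 h (adjusted p = 0.00201, 1.81-fold). Its other probe sets gave 0.59 and 0.45 in controls. The genes of chromosome 19, where Kif11 lies, had medians of 0.47, 0.48 and 0.48 in this comparison in the 3 conditions. Its difference was larger than that of 83.1%, 85% and 88.4% of the 414 genes of that chromosome. The part of the chromosome in its difference was not tested.

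**Figure D4:**
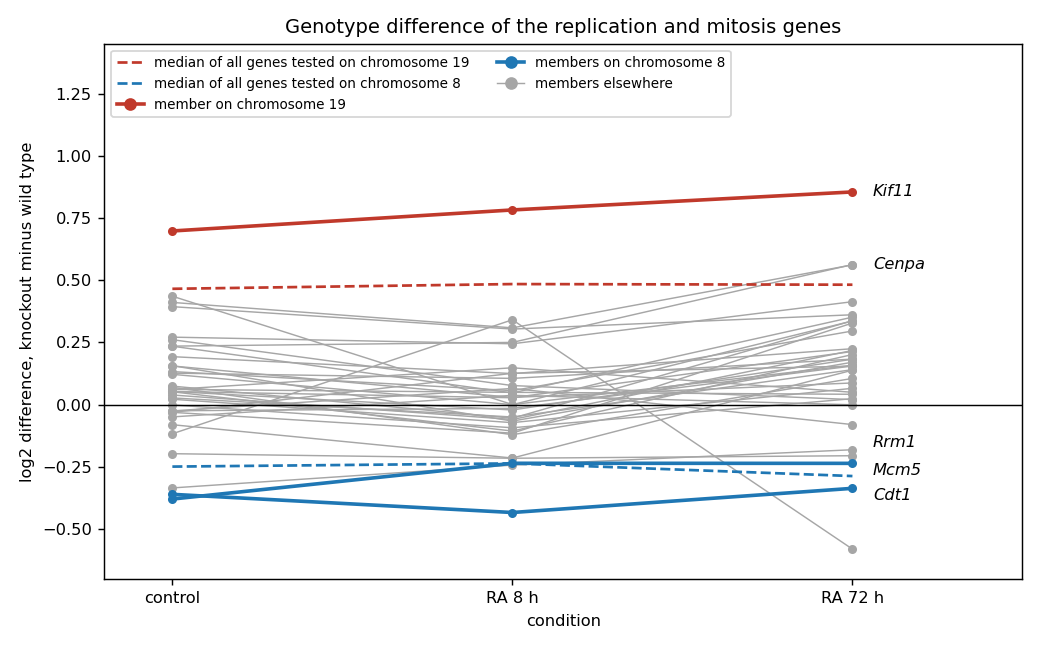
Log2 difference between KO and Wt cells for each of the 36 genes in control, after 8 h and after 72 h of RA. Red marks the chromosome 19 gene, blue the chromosome 8 genes, and dashed lines the medians of those chromosomes over all genes tested. Kif11 is the highest point in each condition, above the chromosome 19 median.

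In controls 3 of 36 genes differed, Kif11 higher and Mcm5 and Rrm1 lower in KO cells, where 4.64% of all genes were called, 1.83% higher and 2.81% lower. The KO arrays lay wholly above the Wt arrays for 6 genes and wholly below for 3, against 9.29% and 10.3% of all genes. Mcm5, a helicase subunit, read 15374, 16544 and 13989 units in Wt and 12059, 11922 and 11243 units in KO controls, without overlap. The log2 difference was -0.38 ± 0.10 (adjusted p = 0.0403), and at 8 h and 72 h the difference was -0.24 in each (adjusted p = 0.231 and 0.371). Mcm5 lies on chromosome 8, where 37.6% of the genes had a lower difference in controls. Rrm1 read 8342, 7891 and 8529.9 units in Wt and 5783, 6836 and 7082 units in KO controls, also without overlap, a difference of -0.33 ± 0.09 (adjusted p = 0.0439) that was -0.24 and -0.18 later (adjusted p = 0.154 and 0.47). Rrm1 lies on chromosome 7. A second probe set of Rrm1 gave -0.14 in controls, and with the mean over probe sets the difference was -0.16 and the call was lost (adjusted p = 0.281). That mean also takes in a probe set of Rrm1 too dim for the filter. Both calls were lost with the LIF labels exchanged, without the replicate 1 controls, and without Wt control replicate 1 (adjusted p = 0.111 for Mcm5 and 0.125 for Rrm1), Wt control replicate 2 (0.142 and 0.0665), KO control replicate 1 (0.079 and 0.173) or KO control replicate 2 (0.107 and 0.0853). The Mcm5 call was also lost without KO control replicate 3 (adjusted p = 0.129) and the Rrm1 call without Wt control replicate 3 (0.114). With the replicate block 6 genes were called, adding Cdt1 (-0.36, adjusted p = 0.00745), Rrm2 (0.26, 0.0364) and Top2a (0.27, 0.0285), where 9.39% of all genes were called.

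With RA for 8 h, 2 genes differed, Kif11 higher and Cdt1 lower in KO cells, where 4.61% of all genes were called, 1.70% higher and 2.91% lower. The arrays did not overlap for 3 genes above and 2 below, against 8.65% and 11.7% of all genes. Cdt1, also on chromosome 8, differed by -0.43 ± 0.11 (adjusted p = 0.0328), beside -0.36 in controls (adjusted p = 0.0764) and -0.34 at 72 h (adjusted p = 0.206). The call was lost without Wt RA 8 h replicate 1 (adjusted p = 0.0612), Wt replicate 2 (0.127), KO replicate 1 (0.136) or KO replicate 3 (0.108). With the replicate block 4 genes were called, adding Rrm1 (-0.24, adjusted p = 0.0487) and Top2a (0.24, 0.0454), where 9.78% of all genes were called.

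At 72 h of RA 2 genes were higher in KO cells, Kif11 and Cenpa, and 0 were lower, where 4.07% of all genes were called, 1.39% higher and 2.68% lower. Cenpa, the histone variant that marks centromeres, read 3976 and 3845 units in Wt and 5865 and 5690.1 units in KO cells at 72 h. At 8 h it read 4720.3, 3818 and 4368 units in Wt and 4925, 5325 and 5051 units in KO cells, and in controls 4901, 4651 and 4495 units in Wt and 6053, 5279 and 5229.6 units in KO cells. The KO arrays lay above the Wt arrays in every condition. The difference was 0.56 ± 0.11 at 72 h (adjusted p = 0.00957, 1.48-fold), 0.25 at 8 h (adjusted p = 0.162) and 0.24 in controls (adjusted p = 0.202). The call at 72 h was lost when any of the 4 arrays of 72 h was left out, with an adjusted p of 0.0673 or 0.11 without Wt replicate 1 or 2 and 0.0859 or 0.061 without KO replicate 1 or 2. With the mean over the 3 probe sets of Cenpa the difference was 0.16, and the call was lost (adjusted p = 0.715). The response of Cenpa to 72 h of RA differed between the genotypes by 0.33 ± 0.15, which did not pass (adjusted p = 0.853, unadjusted p = 0.041).

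At 72 h 16 of 17 mitosis genes and 29 of all 36 lay above 0 in the comparison of KO with Wt cells, with medians of 0.18 for mitosis, 0.14 for replication and -0.01 for all genes. The KO arrays lay wholly above the Wt arrays for 17 of 36 genes and wholly below for 5, against 22.7% and 26% of all genes. With the replicate block 6 genes were called, adding Ccnb2 (0.35, adjusted p = 0.0364), Top2a (0.41, 0.00883) and Ttk (0.33, 0.035) higher and Cdt1 (-0.34, 0.0359) lower, where 8.82% of all genes were called. With the LIF labels exchanged Top2a joined Kif11 and Cenpa, where 5.32% of all genes were called. No gene of the 36 had a response at 72 h that differed between the genotypes, where 0.342% of all genes did (0.0263% with the higher response in KO cells and 0.316% with the lower).

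Beyond the 36, other genes of the cell cycle were grouped by role, and their calls at 72 h are set beside the shares of all genes tested, 8.64% lower and 16.1% higher in Wt cells and 8.26% lower and 14.8% higher in KO cells. No list was tested against these shares. Nucleotide synthesis was the group with the lowest medians among those of the replication machinery, at -0.36 in Wt and -0.33 in KO cells over 12 genes. Of these, 6 fell in Wt and 5 in KO cells, and 0 rose in either, against 8.64% and 8.26% of all genes lower. Shmt1, a serine hydroxymethyltransferase of folate metabolism, read 3894, 3923 and 3459 units in Wt controls and 1883 and 2139 units at 72 h, and 3804, 3852 and 3398 units in KO controls and 1939 and 1850.0 units at 72 h. The arrays did not overlap, and the difference was -0.90 ± 0.12 in Wt and -0.96 ± 0.12 in KO cells (adjusted p = 8.41e-05 and 5.83e-05). Atic and Gart, of purine synthesis, fell in both genotypes (-0.72 and -0.42 in Wt, -0.62 and -0.44 in KO cells), as did Dtymk, the thymidylate kinase (-0.50 and -0.60).

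Of 19 genes of origin licensing and firing, 2 fell in Wt cells, Mcm10 (-0.50 ± 0.11, adjusted p = 0.00395) and Dbf4 (-0.49 ± 0.13, 0.0109), and Dbf4, the activator of the kinase Cdc7, fell in KO cells as well (-0.41 ± 0.13, 0.03), against 8.64% and 8.26% of all genes lower. Of 23 genes of the fork and polymerases, 5 fell and 1 rose in Wt cells, and 5 fell and 2 rose in KO cells, where 24.7% and 23.0% of all genes were called either way. The subunits of replication protein A, which coats single-stranded DNA, went apart: Rpa1 rose by 0.60 in Wt and 0.58 in KO cells, and Rpa2 fell (-0.58 and -0.47). Pole3, of polymerase epsilon, fell (-0.58 and -0.56).

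**Figure D5:**
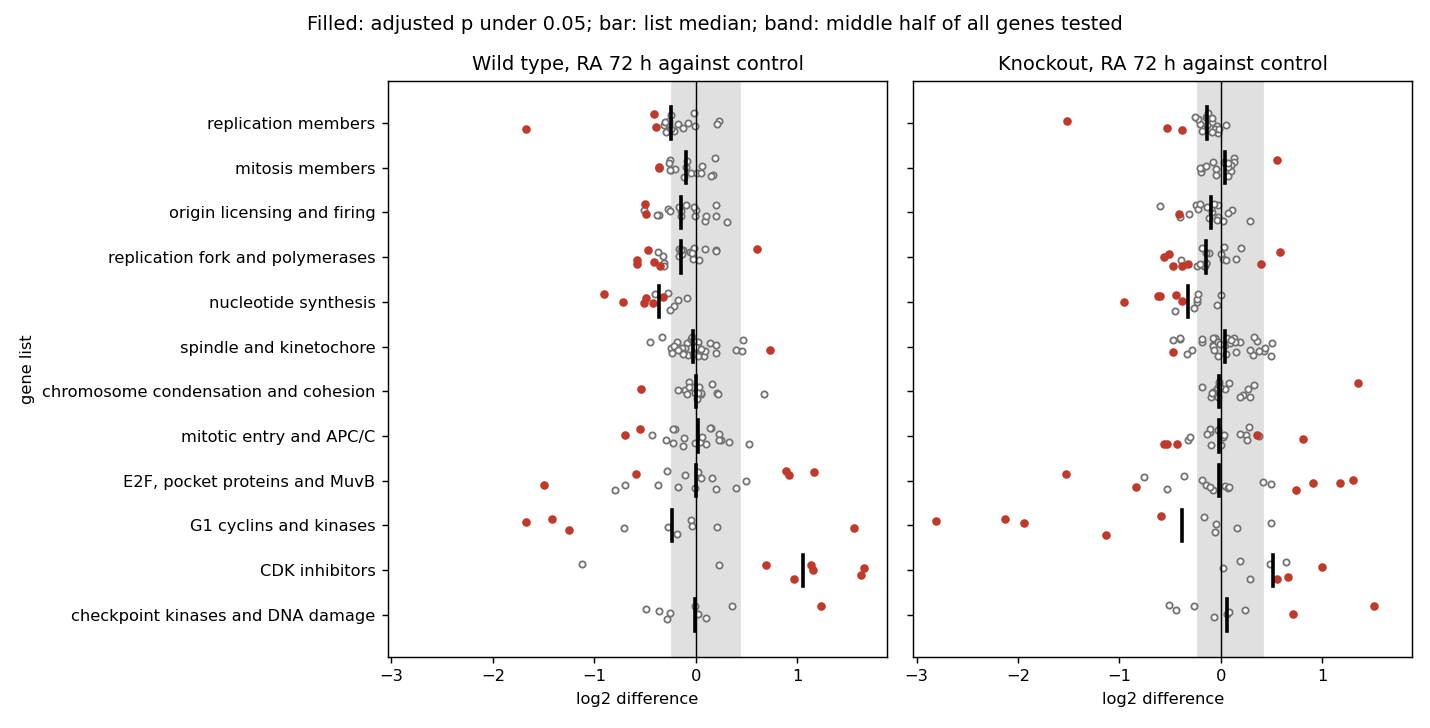
Log2 difference between 72 h of RA and control for the genes of 12 cell cycle lists, in Wt and KO cells. Each point is a gene, filled where the adjusted p is under 0.05, the bar is the list's median and the band spans the lower to the upper quartile of all genes tested. The nucleotide synthesis genes lie mostly below 0, and the CDK inhibitors mostly above it.

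Of the genes of mitosis beyond the members few were called, where 24.7% of all genes in Wt and 23.0% in KO cells were. Of 34 genes of the spindle and kinetochore, 1 rose in Wt cells (Zwint, a kinetochore protein, 0.74, adjusted p = 0.00702) and 1 fell in KO cells (Spc24, of the Ndc80 complex, -0.47, 0.0477). Of 18 genes of chromosome condensation and cohesion, Wapl, which releases cohesin, fell in Wt cells (-0.54, adjusted p = 0.0101), and Pttg1, which encodes securin, rose in KO cells (1.36, 0.0137). Of 20 genes of mitotic entry and the anaphase complex, 2 fell in Wt cells, Cdc26 (-0.70) and Fbxo5 (-0.54), and in KO cells 3 fell, Cdc26 (-0.56) and Anapc10 (-0.53) among them, and 2 rose, Cdc25b (0.81) and Cdc16 (0.36). The list medians lay between -0.03 and 0.04 in both genotypes.

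Regulators of the cell cycle were called in both directions, where 24.7% of all genes in Wt and 23.0% in KO cells were called. Of 18 genes of the E2F family, the pocket proteins and their partners, 3 rose and 2 fell in Wt cells, and 4 rose and 2 fell in KO cells. E2f8, a repressor among the E2F factors, read 1754, 1668 and 1981 units in Wt controls and 649 and 624 units at 72 h, and 2181, 1953 and 2232 units in KO controls and 825 and 654 units at 72 h. It fell, with a difference of -1.5 ± 0.13 in Wt and -1.53 ± 0.13 in KO cells (adjusted p = 1.23e-06 and 1.15e-06). Tfdp1, the partner of E2F in DNA binding, fell (-0.59 and -0.84), and the pocket protein Rbl1 rose by 0.93 and 0.91 and E2f6 by 0.89 and 1.17.

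Of 10 genes of G1 cyclins and kinases, 3 fell and 1 rose in Wt cells, and 5 fell in KO cells, against 8.64% and 8.26% of all genes lower. Ccnd1, which encodes cyclin D1, read 2835, 1927 and 2853 units in Wt controls and 874 and 1000.4 units at 72 h, and 2986, 2939 and 3762 units in KO controls and 609 and 881 units at 72 h. It fell, with a difference of -1.42 ± 0.23 in Wt and -2.13 ± 0.23 in KO cells (adjusted p = 0.000324 and 9.41e-06). The growth regulators Myc and Mycn fell in both genotypes (-1.25 and -1.68 in Wt, -1.14 and -1.94 in KO cells), Ccnd2 rose by 1.56 in Wt cells, and Cdk6 fell by 2.81 in KO cells. Of 8 CDK inhibitors, 6 rose in Wt and 3 in KO cells, and 0 fell, against 16.1% and 14.8% of all genes higher. Cdkn1a, which encodes p21, read 508, 569.6 and 495 units in Wt controls and 1591 and 1732 units at 72 h, and 387, 439.7 and 364 units in KO controls and 665 and 943 units at 72 h. It rose by 1.67 ± 0.20 in Wt and 1.0 ± 0.20 in KO cells (adjusted p = 2.98e-05 and 0.00234). Of 9 checkpoint and DNA damage genes, Ccng1 rose in both genotypes (1.24 and 1.51) and Mdm2 in KO cells (0.72), and 0 fell. At 8 h Ticrr, which helps fire origins, was the 1 gene of these lists that was called, higher by 0.67 in Wt and 0.61 in KO cells (adjusted p = 0.0203 and 0.0413).

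Markers of cell types moved over the same 72 h, where 16.1% of all genes in Wt and 14.8% in KO cells were called higher. The shares called lower were 8.64% and 8.26%, and no marker list was tested against these shares. Of 10 ES cell markers 4 fell in both genotypes (Fgf4, Utf1, Sox2 and Zfp42), and their summed signal went from between 111246 and 128637 units in Wt controls to between 95464 and 101991 units, and in KO cells from between 131674 and 142122 units to between 126659 and 133839 units. Of 14 markers of extraembryonic endoderm 13 rose in Wt and 11 in KO cells, with summed signals from between 8859 and 17344 units to between 39424 and 43298 units in Wt, and from between 6537 and 11716 units to between 31674 and 32455 units in KO cells, where Sox17 and Foxa2 were at the floor of 50 units on all 3 controls. Of 7 trophectoderm markers Krt8 and Krt18 rose in both genotypes and Eomes in Wt cells. The summed signal of the 7 went from 1308 to 2441 units up to between 12429 and 13399.6 units in Wt cells. In KO cells it went from 1612 to 1764 units up to between 3319.9 and 3759 units. Elf5 was at that floor on all control and 72 h arrays, and Cdx2 on the Wt controls and the KO 72 h arrays. Of 9 markers of fibroblast feeders, Fn1 rose and Thy1 fell in both genotypes, the sum went from between 3656 and 4880.2 units to between 6203 and 6533 units in Wt and from between 4958 and 5705 units to between 6289.7 and 6517 units in KO cells, and Col1a1, Col3a1, Postn, Dcn and Lum were at that floor on all controls. Of 6 neural markers measured, Tubb3 fell in Wt cells and Sox1 rose in KO cells, with sums between 973 and 1605 units in the controls labelled with LIF and between 1364 and 1580.2 units at 72 h. The part of these cell types in the changes of the cell cycle genes was not tested.

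Between the control arrays labelled without and with LIF, 0 of 36 genes and 0 of 10476 genes passed limma's test, with 285 genes at an unadjusted p under 0.05 and 1 of the 36, Cdc6 (-0.37, unadjusted p = 0.00768, adjusted p = 0.999). With the LIF labels exchanged 192 genes were called, and with the replicate block 227, none of them among the 36.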

How the data were processed

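The deposited values are linear signal intensities of 45101 probe sets on 18 single-colour arrays, made with MAS5 per the submitters' processing notes, whose version is not given in the sources used here. The authors' intensities have a trimmed mean of 500 units on each array (2% trimmed at each end), so depth has no counterpart here and the number of arrays limits the precision. Deposited values under 50 were set to 50 and turned to log2. A gene took its probe set with the highest mean, which gave 18194 genes, and was tested where 2 arrays or more reached 100 units (11388 genes). Of the probe sets, 34958 were annotated to a single symbol, 932 to several and 9211 to none in the table used, and those with several were not named. In all, 34754 matched RefSeq GRCm38.p6 by Entrez ID.

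Groups came from the sample titles. The 16 arrays of 6 groups entered a single fit in limma 3.58.1 (R 4.3.3; lmFit, eBayes with trend, 10 residual degrees of freedom), with Benjamini-Hochberg adjustment over all genes tested and calls at 0.05. The LIF comparison used the 8 control arrays with genotype as a term. The fit was tested on simulated data. The 37 genes and all lists were chosen with earlier results of these data known. All 37 could be named, with array values for those called at 72 h against control or between genotypes and for Mki67, Pcna, Mcm2, Ccnb1 and Cdk1. From each other list up to 4 genes with the smallest adjusted p at 72 h were named. Socs3, Cyp26a1 and the differences by chromosome served as checks.

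Some titles carry a replicate number, and the rest were numbered in order. All 18 pairs of arrays with the same number in groups of 3 deviated together (r from 0.136 to 0.504), so the number was also fitted as a block. Other alternatives were the floor, an offset, quantile normalization, the filter, the choice of probe set, single arrays left out, the LIF labels and chromosomes 8 and 19 left out. Promoters are from RefSeq.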

Additional observations from a re-analysis of the deposited data

Results flagged for a closer look

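None of the 36 cell cycle genes met a criterion for a closer look, and no group held enough arrays to look for a stray array. Among the cell type markers, 3 genes had a response to 72 h of RA that differed between the genotypes by limma's test, given as the KO response minus the Wt response on the log2 scale. Gata6, a factor of extraembryonic endoderm, rose more in KO cells, by 2.63 ± 0.53 (adjusted p = 0.0473). Eomes, a trophectoderm factor, rose less in KO cells, by -2.04 ± 0.41 (adjusted p = 0.0497), as did the keratin Krt18, by -2.62 ± 0.51 (adjusted p = 0.0421).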

How the results depend on the processing

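For 38 comparisons of 17 of the 36 genes, 467 values under the alternatives kept direction and side of the threshold, 138 lost a call, 3 gained a call and 3 changed sign, none of them called. With single arrays left out, these ranged at 72 h against control from -0.062 (without 72 h replicate 2) to 0.087 for Cdk1 in Wt cells, from -0.040 (without control replicate 3) to 0.19 for Mki67 in KO cells and from -0.20 to 0.029 (without 72 h replicate 2) for Mcm2 in KO cells. Genes outside the 36 were not refitted one by one. Counts below are of the 36 genes. A percentage in brackets, where given, is the share of all genes called in either direction under the same setting. A count without one is not set beside that share and cannot be read against it. For Wt cells at 72 h against control (5 called), the count was 10 with the replicate block (34.6%) and 8 with the LIF labels exchanged (27.8%). It was 2 with quantile normalization (Ccne1 and Cdt1, 23.3%) and 2 with the arrays compared alone (Ccne1 and Pcna, 17.4%). It was 2 without the replicate 1 controls (21.2%), 3 with eBayes without trend (23.7%) and 1 at a 2-fold minimum (11.1%). For KO cells at 72 h against control (4 called), it was 1 at a 2-fold minimum (10.4%). Against 8 h in Wt cells (10 called), it was 5 with quantile normalization (20.7%) and 4 with the arrays compared alone (20.0%). It was 6 with eBayes without trend (21.4%) and 1 at 2-fold (9.55%). Against 8 h in KO cells (4 called), it was 2 with the arrays compared alone and 1 at 2-fold. Between genotypes in controls (3 called), it was 6 with the replicate block (9.39%) and 0 at 2-fold (1.19%). It was 1 with a floor of 100 (1.86%), the arrays compared alone (1.62%) or the LIF labels exchanged (5.12%). It was also 1 without the replicate 1 controls (1.23%), with eBayes without trend (4.24%) or with chromosomes 8 and 19 left out (then Rrm1, otherwise Kif11). At 8 h (2 called), it was 4 with the block (9.78%) and 0 at 2-fold or without these chromosomes. It was 1 with a floor of 100 (1.98%), no filter (2.68%), the arrays compared alone or eBayes without trend. At 72 h (2 called), it was 6 with the block (8.82%), 4 with the arrays compared alone and 0 at 2-fold. It was 1 with the mean over probe sets or without these chromosomes. The causes were not tested, save that leaving out chromosomes removes their genes.

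With each array left out in turn, counts ranged from 1 to 5 and from 2 to 4 at 72 h against control in Wt and KO cells, from 2 to 10 and from 1 to 4 against 8 h, and from 1 to 3, 1 to 2 and 1 to 1 between genotypes in control, at 8 h and at 72 h. Without a 72 h array the share of all genes called fell as well, against control and against 8 h in both genotypes. The counts at 8 h against control, for the interactions and for LIF stayed at 0, and the block moved no other count by over 1.5 times. The LIF comparison had no value for the arrays compared alone. With 2 arrays at 72 h, the smallest change called against control was that of Ccna2, 1.28-fold lower. A fold change of a signal that reaches the floor of 50 units is understated. No measured cell cycle gene of the set read under that floor on any array, and Tyms was the dimmest.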

Other observations

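Over all 207 cell cycle genes tested, members included, the calls between genotypes were set out by chromosome after their values were seen. In controls 4 of 6 genes on chromosome 19 were higher in KO cells (Fen1 by 0.68, Incenp by 0.57, Smc3 by 0.58, and Kif11), and 4 of 14 on chromosome 8 were lower (Gins2 at -0.41, Orc6 at -0.51, Rbl2 at -0.84, and Mcm5). Of the 187 on other chromosomes, 1 was higher (Cdkn3) and 4 were lower (Ccng1, Cdkn1c, Cdkn2b and Rrm1). The medians in controls, at 8 h and at 72 h were 0.58, 0.49 and 0.65 on chromosome 19, -0.30, -0.33 and -0.25 on chromosome 8, and 0.05, 0.03 and 0.07 on the others. Over all genes tested in controls, 30.7% of 414 on chromosome 19 and 17.4% of 638 on chromosome 8 were called, against 2.81% of 10336 elsewhere. At 72 h the CDK inhibitors Cdkn1a and Cdkn2b were lower in KO cells, by -1.07 and -2.57 on the log2 scale.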
